A study of Rattus norvegicus with 18 samples.

Results

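The comparison set the livers of all rats fed a high fat diet, with or without an extract, against those of rats fed chow. It gives the average difference of the fat-fed groups from chow, which need not be the same in each. Members were chosen by the diet label alone: 12 fat-fed arrays and 6 chow arrays, together 18 of 18 arrays of the study. Liver RNA came from adult male Sprague Dawley rats, which were kept on their diet for 8 weeks and fasted overnight before death. The chow group (labelled normal liver) received standard food, the HFD group (labelled fatty liver) a high fat diet, and the HFD+PE group (labelled normal liver) the same kind of diet plus an extract of pomegranate skin, dosed at 150 mg per kg per day. The make-up of the diets and the hour of death of each animal were not given in the sources used here. No group had chow and extract together, so the pooled contrast holds the extract in 5 of its 10 fat-fed animals.

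The values are log2 signals of Affymetrix probe sets, on which a difference of 1 is a doubling, and each of 14217 genes was read from its brightest probe set. The pairs taken as near-identical were HFD 1 with HFD 2, HFD+PE 3 with HFD+PE 4, and chow 3 with chow 4. They had 0 probe sets more than 2 log2 units apart against 18 to 109 in the other pairs. By the SD of the difference, HFD 1 with HFD 2 (0.117) and chow 3 with chow 4 (0.215) were below all other pairs (0.2596 to 0.4069). HFD+PE 3 with HFD+PE 4, at 0.2598, was within the range of the other pairs. Equal values made up 42.93% of probe sets in the HFD pair, 20.24% in the chow pair and 18.1% in the HFD+PE pair. Chow 6 with HFD+PE 6, not averaged, had 20.93%. Each pair taken as near-identical was averaged and counted as 1 animal, which left 10 fat-fed and 5 chow animals. The transcripts added as hybridization controls were high on 5 arrays (12.35 to 12.92), namely chow 1, 2 and 3 and HFD+PE 1 and 3, and lower on the other 13 (11.40 to 11.84). Hepatocyte genes were bright throughout, with Alb at 14.97 in chow and 14.96 in fat-fed animals. The adipocyte genes Adipoq and Plin1 were dim, with chow means of 3.83 for both, where array medians were 5.4 to 5.5. Cfd, the adipocyte gene for adipsin, was brighter, with a chow mean of 6.76, and its difference of -0.47 (SE 0.16, adjusted p = 0.239) did not pass.

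The liver takes up fatty acids and sterols from the diet, burns or stores the fatty acids, and lowers its own sterol synthesis when sterol is plentiful. It also secretes most plasma proteins, which are folded by chaperones of the endoplasmic reticulum, and the genes of these chaperones are turned on together in the unfolded protein response. Beside hepatocytes it holds Kupffer cells, which are its resident macrophages, stellate cells, which make matrix, endothelial cells and lymphocytes.

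Pooling gave 5 genes past an adjusted p of 0.05 in limma, of 14217 tested (0.0352%): Enpp2 rose (1 gene, 0.00703%), and Tagln2, Isyna1, Hsph1 and Vim fell (4 genes, 0.0281%). Without regard to the adjustment, 1676 genes (11.8%) had a p under 0.05, 858 higher (6.04%) and 818 lower (5.75%) in fat-fed animals, where 711 are expected by chance. The median change over all genes was 0.005, and 51.8% of genes were higher and 46.3% lower. Taken alone, neither fat-fed group had a gene past the threshold against chow: 0 for HFD (smallest adjusted p 0.315 in limma, 1088 genes or 7.65% with an unadjusted p under 0.05) and 0 for HFD+PE (smallest adjusted p 0.104, 1584 genes or 11.1%). Both of these comparisons use the same 5 chow animals as the pooled one. HFD+PE against HFD, whose estimate does not involve the chow animals, had 0 genes past the threshold (smallest adjusted p 0.993) and 384 (2.7%) with an unadjusted p under 0.05.

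Enpp2 encodes autotaxin, a secreted lysophospholipase that makes the signalling lipid lysophosphatidic acid. Its log2 level was 11.4, 10.8, 11.5, 11.4 and 11.3 in the chow animals and ran from 11.6 through a median of 12.05 to 12.2 in the 10 fat-fed animals. The groups did not overlap, and the fat-fed animal nearest to chow was HFD 1-2, at 11.6. The rise was 0.74 (SE 0.12, adjusted p = 0.0385), or 1.67-fold. Taken alone, HFD stood 0.68 and HFD+PE 0.80 above chow, and these groups differed by 0.12 with a 95% interval from -0.17 to 0.41.

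Tagln2 encodes transgelin 2, an actin-binding protein. Its level was 8.1, 8.3, 8.65, 8.5 and 8.5 in chow animals, and 7.4 at the lowest, 7.825 at the median and 8.0 at the highest in fat-fed animals. All 10 fat-fed animals lay below all 5 chow animals, with chow 1 and HFD 1-2 closest to each other. Tagln2 fell by 0.63 (SE 0.098, adjusted p = 0.0385), with values of -0.65 for HFD and -0.60 for HFD+PE. Vim, the intermediate filament protein of mesenchymal cells, was at 8.6, 9.1, 9.05, 8.8 and 9.1 in chow and from 8.0 through 8.275 to 8.6 in fat-fed animals. The groups met only at 8.6, which was the level of chow 1, HFD 3 and HFD 5. Vim fell by 0.66 (SE 0.11, adjusted p = 0.0475).

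Isyna1 encodes the enzyme that starts the synthesis of inositol from glucose 6-phosphate. It was dim to moderate, at 6.7, 6.7, 6.95, 6.3 and 6.2 in chow animals and from 5.4 through 5.75 to 6.2 in fat-fed animals. The only overlap was HFD 1-2, which equalled chow 6 at 6.2. The fall was 0.82 (SE 0.13, adjusted p = 0.0385), or 1.77-fold lower than in chow. Among 27 genes of lysophosphatidate and inositol metabolism, Enpp2 and Isyna1 were the only members past the threshold. Over all genes 0.00703% passed higher and 0.0281% lower. The list was written with earlier results of these data known, so that its holding these 2 genes is no separate evidence. As a whole the list had 13 members higher, 14 lower and a median change of -0.01. Next in it were Plpp3, a lipid phosphatase that degrades lysophosphatidic acid (0.22, SE 0.088), and Slc5a3, an inositol transporter (-0.28, SE 0.11), neither past the threshold.

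Hsph1 encodes a large heat shock protein that exchanges nucleotide on Hsp70. Its level was 10, 9.9, 10.3, 9.8 and 9.6 in chow animals and ran from 8.5 through 9.0 to 9.7 in fat-fed animals. HFD 1-2, at 9.7, was the only fat-fed animal inside the chow range, and the HFD+PE animals lay close together between 8.9 and 9.2. Hsph1 fell by 0.91 (SE 0.15, adjusted p = 0.0385), or 1.88-fold. A second, dimmer probe set of the gene was at -0.91 as well.

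**Figure D1:**
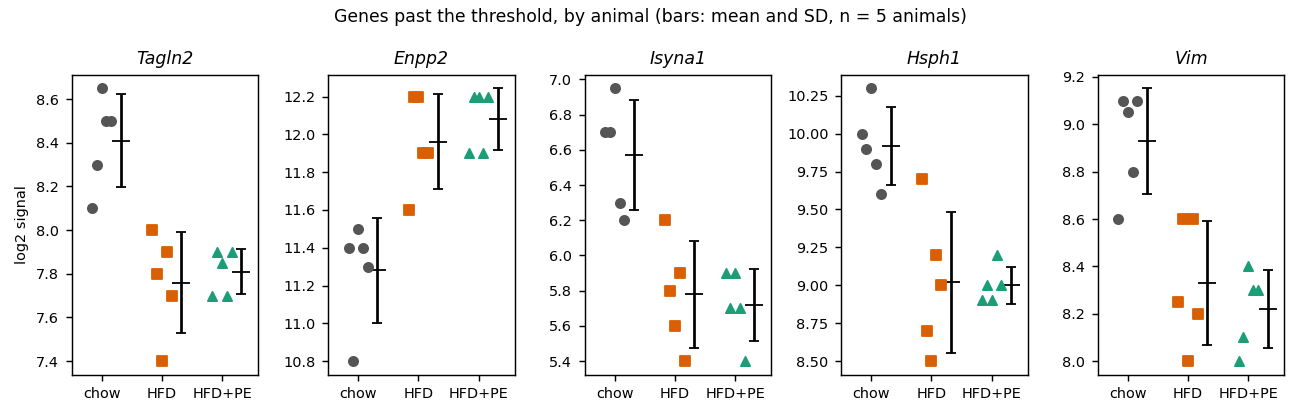
Log2 signal of the 5 genes past the threshold in each animal of the chow, HFD and HFD+PE groups; points are animals, bars the group mean and SD (n = 5 animals per group), and each panel has its own axis. For Enpp2 all 10 fat-fed animals sit above the chow animals, for Tagln2 all 10 sit below them, and for Isyna1, Hsph1 and Vim the groups touch or overlap at 1 or 2 fat-fed animals.

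No difference between HFD+PE and HFD passed for these genes, with values of 0.05 for Tagln2 (95% interval -0.19 to 0.29), -0.06 for Isyna1 (-0.40 to 0.28), -0.02 for Hsph1 (-0.40 to 0.36) and -0.11 for Vim (-0.39 to 0.17). The pooled fit counts a difference between HFD and HFD+PE as spread, so genes past its threshold tend to have small differences there. Such values are therefore no separate evidence that the fat-fed groups agree. The calls themselves lay near the threshold, and their number was 36 where all 18 arrays were counted as separate animals. With 1 mean per group and the mean of HFD and HFD+PE set against chow, the 5 changes had the same size but an adjusted p of at least 0.0666 in limma. Leaving out 1 animal gave 31 genes without HFD 1-2 (14 higher and 17 lower), 11 without HFD+PE 1, 5 without HFD 5 and 3 without chow 1. It gave 0 without any one of chow 2, 3-4, 5 or 6, of HFD 3, 4 or 6, or of HFD+PE 2, 3-4, 5 or 6, with 1265 to 1776 genes at an unadjusted p under 0.05. On the arrays of the low hybridization control set only, Tagln2 was at -0.80 (adjusted p = 0.0379) and stayed past the threshold, and Enpp2 was at 0.66, Isyna1 at -0.74, Hsph1 at -0.90 and Vim at -0.69 without passing it. With that set as a covariate 0 genes passed, with 1352 at an unadjusted p under 0.05, and the 5 changes were between -0.90 and 0.69.

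Separation of the groups was rare, and the number of genes that would separate by chance was not worked out. Only 15 genes (0.106%) had no overlap between the fat-fed and the chow animals, 7 with all fat-fed animals above (0.0492%) and 8 with all below (0.0563%). Beside Enpp2 and Tagln2 these included Crip1, a small LIM domain protein, at 7.8, 8.2, 7.75, 8.1 and 7.8 in chow and from 6.9 through 7.3 to 7.6 in fat-fed animals. The difference was -0.62 (SE 0.11), with an adjusted p of 0.0769. Timp1, an inhibitor of matrix metalloproteinases, was at 6.0, 5.7, 5.55, 5.6 and 5.7 in chow and from 5.1 through 5.3 to 5.5 after fat feeding, a difference of -0.40 (adjusted p = 0.106). The gap between the groups was 0.15 for Crip1, 0.10 for Enpp2 and Tagln2 and 0.05 for Timp1, where values are rounded to 0.1 or, for averaged pairs, to 0.05. Marveld1, a membrane protein, showed a larger difference (-1.30, SE 0.44), but this was carried by HFD 4 at 5.6 and HFD+PE 6 at 5.7, the other fat-fed animals being at 7.6 to 8.35 and chow at 8.4 to 9.7. The remaining 10 were Ppp2r3a, Lmo7, B3galt6, Homer1, Klk8 and Stmn4 above chow and Nt5c, Pdxdc1, Tulp3 and Csf3r below it, with differences from -0.36 to 0.56. Klk8 (chow mean 3.26) and Csf3r (3.62) were dim.

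The 15 genes with the smallest p in each direction are named next, and no test of a shared function was run. Apart from the 5 above, none passed, with adjusted p values from 0.0769 to 0.13 in limma. On the lower side the next were Crip1, Timp1, Creld2, Sdf2l1, Nt5c (a nucleotidase), Lrg1 (a secreted glycoprotein), Parp16 (an ADP-ribosyltransferase of the endoplasmic reticulum membrane), Dnajb11, Pdxdc1, Anxa2 and Ugt2b1. Ugt2b1, 1 of a family of similar glucuronosyltransferases that conjugate steroids and drugs, had the largest difference, -1.46 (SE 0.32). It was at 9.8, 8.9, 10.4, 10.7 and 10.7 in chow and from 7.8 through 8.55 to 9.95 in fat-fed animals, with chow 2 low and HFD 1-2 high. On the higher side were Btbd10, Rpap2 (an RNA polymerase II phosphatase), Aebp2 (a partner of Polycomb repressive complex 2), Anks4b, Wasf1 (an actin regulator), Bmf (a pro-apoptotic BH3-only protein), Ubtd2, Ppp2r3a (a phosphatase 2A subunit), Zmym4, Brpf3 (a scaffold of histone acetyltransferases), Gtpbp10, Chd3 (a chromatin remodeller), Rrs1 (a ribosome assembly factor) and Aadac (an esterase of the endoplasmic reticulum). Their differences ran from 0.33 for Brpf3 to 0.60 for Ubtd2. A second probe set of Btbd10 was level, at -0.005, whereas the other 3 probe sets of Aebp2 were higher in fat-fed animals by 0.33 to 0.40.

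**Figure D2:**
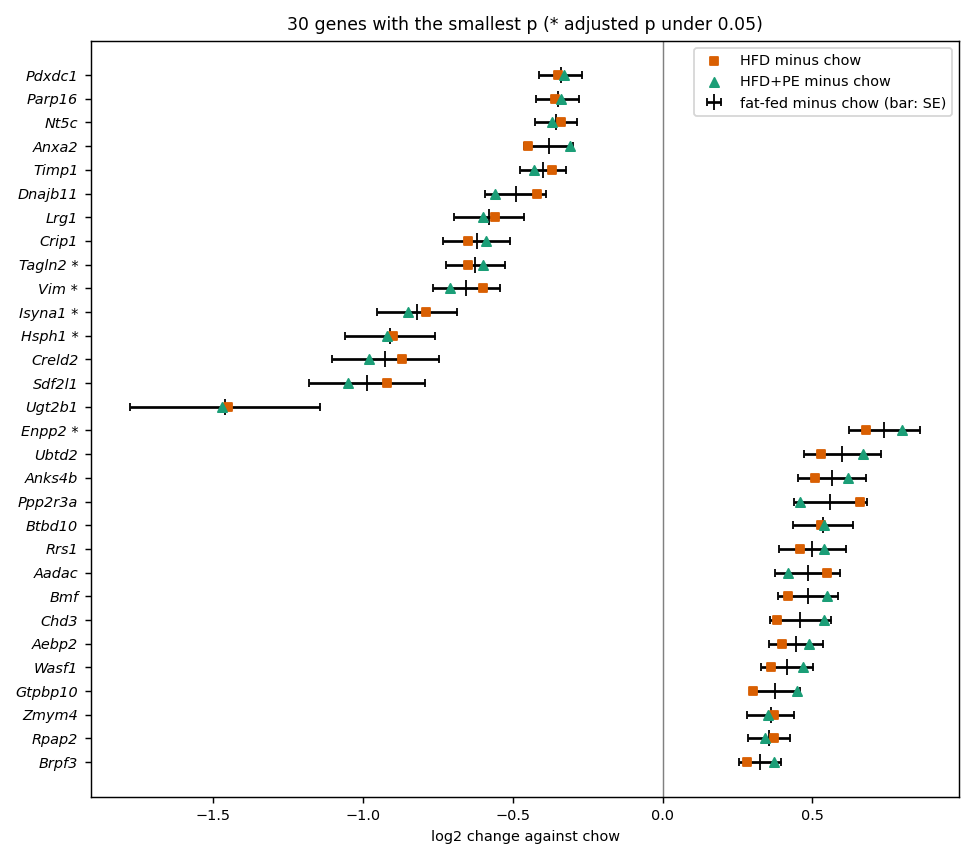
Log2 change against chow of the 30 genes with the smallest p, 15 in each direction; ticks with bars are the pooled change and its SE (10 fat-fed against 5 chow animals), squares HFD and triangles HFD+PE, and a star marks an adjusted p under 0.05. The 5 starred genes lie between -0.91 and 0.74, and Ugt2b1 has the largest difference and the widest error. The genes were picked by the pooled fit, which favours those where HFD and HFD+PE are alike.

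Genes of the endoplasmic reticulum chaperones and the unfolded protein response were lower in fat-fed animals in 24 of 27 measured cases, with a median of -0.26. None passed the threshold; 15 (55.6%) had an unadjusted p under 0.05 in the lower direction and 1 in the higher, against 5.75% and 6.04% of all genes. Members of one pathway vary together, so that these counts are not independent observations. The shares over all genes are the same for every other list counted here, with 0.0281% lower and 0.00703% higher past the threshold. The lists were written with earlier results of these data known. Sdf2l1, which assists folding in the endoplasmic reticulum, was at 10.2, 10.3, 10.35, 10 and 9.6 in chow and from 8.4 through 9.15 to 9.7 in fat-fed animals. Creld2, a stress-inducible resident of the same compartment, was at 10.2, 10.2, 10.5, 9.7 and 9.4 in chow and from 8.4 through 9.05 to 9.6 after fat feeding. For both genes chow 6 was the lowest chow animal and HFD+PE 1 the highest fat-fed animal, and these overlapped. The differences were -0.99 (SE 0.19) for Sdf2l1 and -0.93 (SE 0.18) for Creld2, each with an adjusted p of 0.106.

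The chaperones proper were lower by smaller amounts. Hyou1, an Hsp70-like chaperone, differed by -0.64 (SE 0.14), although its second, dim probe set was at -0.09. The secreted protein Manf differed by -0.57 (SE 0.12), and the co-chaperone Dnajb11, at 9.9 in 4 chow animals and 9.6 in chow 6, by -0.49 (SE 0.10). Hspa5, which encodes BiP, the main Hsp70 of this compartment, was at 12.9, 12.9, 12.95, 12.6 and 12.4 in chow and from 12.1 through 12.35 to 12.6 in fat-fed animals, a difference of -0.41 (SE 0.10). Hsp90b1, its Hsp90, differed by -0.43 (SE 0.11), Calr, the lectin chaperone calreticulin, by -0.29 (SE 0.091), and the disulfide isomerases Pdia3, Pdia6 and Pdia4 by -0.25 to -0.38. The adjusted p of these genes was between 0.119 and 0.296. Against them stood Herpud1, which acts in degradation from the endoplasmic reticulum (0.32, SE 0.13), Derl2 (0.11), and Xbp1, which drives many of these genes, at 0.00 (SE 0.18). The array reads the total Xbp1 transcript and does not tell its spliced from its unspliced form.

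The mean of the list, taken in each animal relative to the chow mean, was 0.08, 0.06, 0.12, -0.09 and -0.17 in chow 1, 2, 3-4, 5 and 6, and from -0.52 to -0.11 in the fat-fed animals. All 10 fat-fed animals were below the chow mean and 8 were below every chow animal, the exceptions being HFD 1-2 (-0.13) and HFD+PE 1 (-0.11). The median change of the list was -0.22 on the low hybridization control set, which holds 3 chow, 6 HFD and 4 HFD+PE arrays. The high set held the other 3 chow arrays and no HFD array. Chow 1, 2 and 3-4, which include these chow arrays, had the highest list means. What part the control set has in the difference was not tested. Genes of the integrated stress response, which is another branch of stress signalling, were not lower: 14 of 22 were higher and 8 lower, with a median of 0.06 and 0 with an unadjusted p under 0.05 in limma. That median was -0.01 without HFD+PE 5 and 0.03 without chow 1. Its transcription factors Atf4 (0.10, SE 0.095) and Ddit3 (0.13, SE 0.12) were close to chow.

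Promoters of the chaperone genes are shown because the element that binds the unfolded protein response factors is well defined, and because its carriers differed in how far they were from chow. The endoplasmic reticulum stress element was searched as CCAAT, any 9 bases and then CCACG on both strands, from 250 bases before to 50 after each RefSeq start site of build GRCr8. Of 27 measured members, 22 had a promoter in the RefSeq table and 7 of these held a match, against 22 of all 33469 promoters (0.0657%). The stretches below run 5′ to 3′ on the strand of the gene and end at or before its start site, and capitals mark the match; for Creld2 and Calr the match lies on the opposite strand and so reads in reverse complement. Hsp90b1 has 2 matches, of which the one farther from the start site is printed.
Creld2 (chr7:121789209-121789287, plus strand): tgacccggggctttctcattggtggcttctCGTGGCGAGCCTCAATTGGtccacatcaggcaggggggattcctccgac
Hsp90b1 (chr7:23012421-23012499, minus strand): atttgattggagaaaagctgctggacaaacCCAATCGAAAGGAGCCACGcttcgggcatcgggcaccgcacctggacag
Hspa5 (chr3:38452943-38453015, plus strand): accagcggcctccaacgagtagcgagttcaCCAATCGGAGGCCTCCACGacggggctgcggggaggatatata
Calr (chr19:40213117-40213183, plus strand): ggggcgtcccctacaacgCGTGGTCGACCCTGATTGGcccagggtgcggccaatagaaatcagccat
Dnajc3 (chr15:102432504-102432582, plus strand): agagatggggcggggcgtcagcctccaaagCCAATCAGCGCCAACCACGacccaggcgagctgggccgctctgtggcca
Canx (chr10:35158039-35158107, minus strand): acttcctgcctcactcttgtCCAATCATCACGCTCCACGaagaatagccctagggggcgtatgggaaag
Xbp1 (chr14:84604528-84604606, plus strand): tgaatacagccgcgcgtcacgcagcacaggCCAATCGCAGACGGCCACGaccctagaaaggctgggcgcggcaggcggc

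In the order printed, the differences from chow were -0.93, -0.43, -0.41, -0.29, -0.15, -0.09 and 0.00, so that a match was found in the promoter of Creld2, far from chow, and also in that of Xbp1, level with it. The median was -0.29 over the 7 genes with a match and -0.26 over the 15 with a promoter and no match, among which was Sdf2l1. The match in Hspa5 lies at positions -43 to -25 relative to the start site, and that in Xbp1 at -65 to -47. The other 5 members had no promoter among those searched.

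Of the 21 measured heat shock proteins of the cytosol and mitochondria, 16 were lower and 5 higher, with a median of -0.13; 1 (Hsph1) passed and 6 had an unadjusted p under 0.05, all lower. After Hsph1 came Stip1, the cochaperone that joins Hsp70 to Hsp90, at 8.2, 8.1, 8.45, 8.1 and 7.9 in chow and from 7.5 through 7.7 to 8.1 after fat feeding (-0.43, SE 0.094, adjusted p = 0.126). Chordc1, an Hsp90-binding protein (-0.37, SE 0.11), the constitutive Hsp90ab1 (-0.27, SE 0.089), the inducible Hsp70 gene Hspa1a (-0.67, SE 0.29), whose signal may include its near-identical copy, and Hspb8 (-0.19, SE 0.083) followed. The mitochondrial chaperonins Hspd1 (-0.03) and Hspe1 (0.03) were level. The heat shock element, searched on both strands as GAA, TTC and GAA with any 2 bases between each, was found in 5 of 18 members with a promoter. It was found in 267 of 33469 promoters (0.798%). The element is shown for Hsph1, where the match lies at positions -36 to -24, on the opposite strand, and so reads in reverse complement.
Hsph1 (chr12:10427302-10427367, plus strand): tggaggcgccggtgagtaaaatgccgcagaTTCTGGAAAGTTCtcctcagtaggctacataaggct
The other matches were in Chordc1, Dnaja1, Hspd1 and Hspe1, and the differences of all 5 carriers ran from -0.91 to 0.03. The median of this list moved from -0.13 to -0.23 on the low hybridization control set and to -0.07 without chow 3-4.

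Cytoskeletal and annexin genes were lower in 28 of 32 cases, with a median of -0.27 in the pooled comparison and in each fat-fed group against chow. Tagln2 and Vim passed, where 0.0281% of all genes passed in the lower direction. An unadjusted p under 0.05 was found in 16 members (50%), all lower, against 5.75% of all genes. This list too was written with earlier results of these data known. Anxa1, a membrane-binding annexin, was at 6.5, 6.9, 6.35, 7.3 and 6.6 in chow and from 5.6 through 6.05 to 6.4 in fat-fed animals (-0.69, SE 0.15). Its partner in the family, Anxa2, was at 7.2, 7.4, 7.45, 7.7 and 7.4 against 6.9, 7.05 and 7.2 at the lowest, median and highest fat-fed animal (-0.38, SE 0.082); the groups met at 7.2. S100a10, which binds Anxa2, differed by -0.43 (SE 0.10), and its relative S100a6 by -0.53 (SE 0.14). The actin-linked genes Tpm4 (-0.43), Arpc1b (-0.32), Cnn2 (-0.30) and Flna (-0.26), the tubulin gene Tubb5 (-0.28) and the galectin genes Lgals3 (-0.61) and Lgals1 (-0.39) were lower too. The adjusted p values of these members, Tagln2 and Vim apart, ran from 0.126 for Anxa1 to 0.246 for Lgals1. The list mean was -0.14, 0.06, 0.01, 0.11 and -0.05 in chow 1, 2, 3-4, 5 and 6 and from -0.56 to -0.13 in fat-fed animals, of which 9 of 10 were below every chow animal.

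Many of these cytoskeletal genes are more abundant in cells other than hepatocytes, and the markers of such cells were therefore set beside them. All 19 measured Kupffer cell and macrophage markers were lower in fat-fed animals, with a median of -0.52; 0 passed in limma and 14 had an unadjusted p under 0.05. Clec4f, a lectin of rodent Kupffer cells, was at 11, 11.7, 11.15, 10.6 and 10.8 in chow and from 9.5 through 10.3 to 11.15 in fat-fed animals (-0.75, SE 0.22). C1qa, a complement subunit made by macrophages, was at 9.3, 10.2, 9.5, 9.4 and 9.3 against 8.2, 8.9 and 9.4 (-0.70, SE 0.18). The scavenger receptor Cd163 (-0.69), Adgre1, which encodes F4/80 (-0.68), and the lysosomal Cd68 (-0.62) were similar, whereas the lysozyme gene Lyz2 was at -0.07. Chow 2 was the highest animal for both Clec4f and C1qa. The list mean was 0.57 in chow 2 and from -0.27 to 0.01 in the other chow animals, and from -1.01 to -0.03 in fat-fed animals. Without chow 2 the median change was -0.30, and on the low hybridization control set it was -0.36. In bulk liver, fewer cells of a type and less RNA per cell cannot be told apart.

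Stellate cell and matrix markers were lower in 23 of 27 cases with a median of -0.15, and 8 had an unadjusted p under 0.05 in that direction. Beside Timp1 they included the platelet-derived growth factor receptor Pdgfra (-0.41, SE 0.11), the matricellular Ccn2 (-0.72, SE 0.21) and the collagen chain Col1a2 (-0.54, SE 0.18), while the contractile marker Acta2 was at -0.10 (SE 0.061). Lox, the lysyl oxidase that cross-links collagen, stood on the other side: 8.4, 6.4, 8.15, 8.4 and 7.2 in chow and from 8.2 through 9.3 to 10.2 in fat-fed animals. The difference was 1.44 (SE 0.36, adjusted p = 0.156), and 7 of 10 fat-fed animals were above every chow animal. Endothelial markers (7 higher, 11 lower, median -0.06), lymphocyte markers (4 and 16, -0.07) and hepatocyte markers (6 and 10, -0.01) had 0 genes past the threshold in limma, with 4, 4 and 2 at an unadjusted p under 0.05. Most lymphocyte markers were dim. Over the 6 with a mean signal of at least 6, the median was -0.45. These include Prf1 (-0.54), Ccl5 (-0.48) and Cd74 (-0.49), which is also an antigen presentation gene. T and B cell genes such as Cd3e (0.095), Cd79b (0.045), Cd3d (-0.09) and Cd4 (-0.125) were closer to chow and lay on both sides of it. Over all 20 markers the median was -0.13 without chow 3-4. The endothelial median ran from -0.02 without HFD 6 to -0.11 without HFD+PE 6. The part of macrophage and stellate cell RNA in the lower Tagln2, Vim and annexin levels was not tested.

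Antigen presentation genes were lower in 19 of 20 cases with a median of -0.31, and 7 had an unadjusted p under 0.05. Cd74, the invariant chain of class II molecules, was lower by 0.49 (SE 0.16) and RT1-Db1, a class II beta chain, by 0.50 (SE 0.18). Interferon response genes were lower in 25 of 29 cases with a median of -0.31, and 13 had an unadjusted p under 0.05, all lower. The antiviral synthetase gene Oas1a was at 7.5, 7.7, 8.0, 8.1 and 7.5 in chow and from 6.0 through 6.975 to 7.65 in fat-fed animals (-0.91, SE 0.24). The median of the interferon list was -0.20 for HFD against chow and -0.42 for HFD+PE against chow, and that of the antigen presentation list was -0.28 and -0.30; each pair shares the chow animals. Without chow 5 the pooled median of antigen presentation was -0.18. None of these genes passed, and the macrophage markers were lower in the same animals; their part was not tested.

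**Figure D3:**
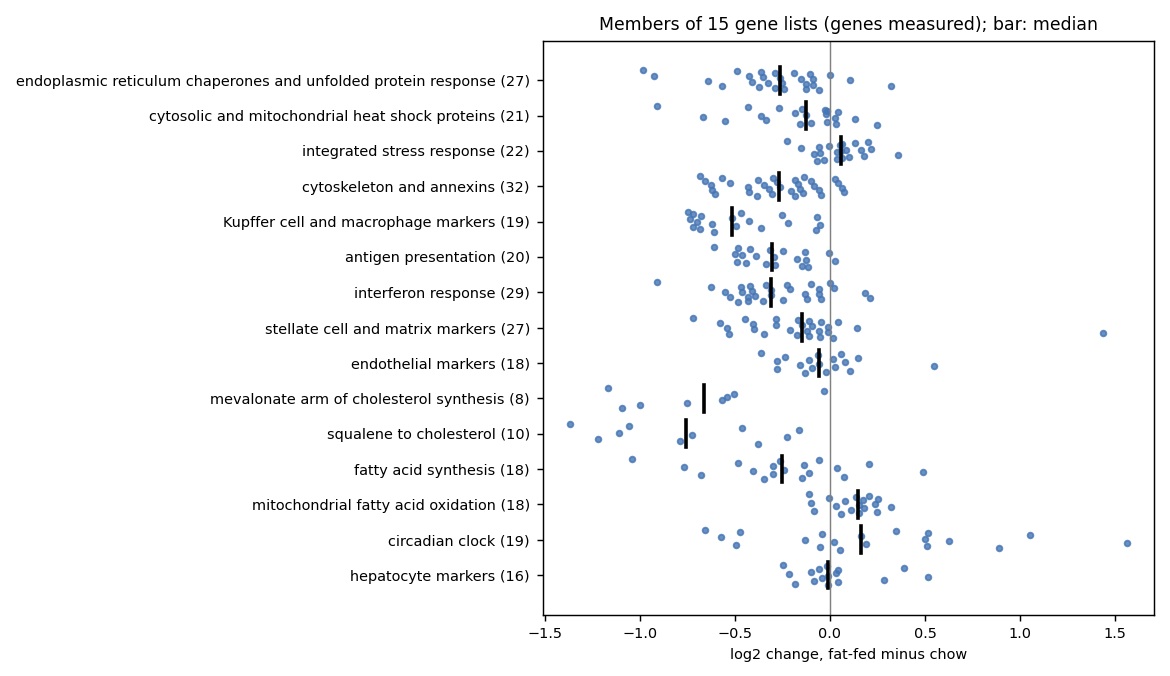
Pooled log2 change of the measured members of 15 gene lists; each point is a gene, the number of genes is in brackets, and the bar is the list median. All measured macrophage and cholesterol synthesis genes lie left of 0, most endoplasmic reticulum and cytoskeleton genes do, and the integrated stress response and hepatocyte lists are centred near 0.

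Of the 40 lists, the 2 of cholesterol synthesis had the medians farthest from 0, with all 8 measured genes of the mevalonate arm (median -0.66) and all 10 from squalene to cholesterol (median -0.76) lower in fat-fed animals. None passed in limma, and 7 and 9 of them had an unadjusted p under 0.05. Sqle, the squalene epoxidase, was at 6.2, 7.5, 6.75, 7.2 and 6.6 in chow and from 4.0 through 5.15 to 7.75 in fat-fed animals (-1.37, SE 0.47). Cyp51, the lanosterol demethylase, was at 11.2, 12.0, 11.3, 11.5 and 11.6 against 9.4, 10.4 and 11.75 (-1.06, SE 0.31). For both genes the highest of the fat-fed animals was HFD+PE 3-4 and the next HFD 1-2, and these 2 lay within or above the chow range. HFD 6 came after them, at 6.3 for Sqle, within the chow range, and at 10.9 for Cyp51, below it. The mean of the squalene list was 0.44 in HFD+PE 3-4, -0.10 in HFD 1-2 and -0.29 in HFD 6, where chow animals ran from -0.34 to 0.33. The other 7 fat-fed animals were below every chow animal, the lowest at -1.48. The median of the squalene list was -0.595 for HFD and -0.92 for HFD+PE, each against the same chow animals. For the mevalonate arm it was -0.57 and -0.755. All 10 squalene genes and 7 of the 8 mevalonate genes were lower in HFD+PE than in HFD, and none passed the threshold for that difference. Acat2, which joins acetyl-CoA units (-1, SE 0.26), had the smallest p of these lists and an adjusted p of 0.158. The fat-fed animals were thus widely spread, with an SD of 0.764 for Cyp51 against 0.17 for Tagln2.

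Of 8 genes of sterol uptake and sensing, 4 were higher and 4 lower. Insig1, which retains the sterol regulatory factors in the endoplasmic reticulum, differed by -1.12 (SE 0.45). Srebf1, the factor that drives fatty acid synthesis, was at 9.6, 9.6, 9.9, 10.1 and 9.9 in chow and from 9.6 through 10.525 to 11.2 in fat-fed animals (0.66, SE 0.22). Srebf2, the factor for sterol genes, differed by -0.30 (SE 0.13), although another of its probe sets had the opposite sign. The sterol regulatory element, searched as ATCAC, any base and then CCAC on both strands, was found in 0 of 21 members with a promoter and in 90 of all promoters (0.269%), so that no sequence is shown.

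Fatty acid synthesis genes were lower in 14 of 18 cases, with a median of -0.25 in the pooled comparison, -0.04 for HFD and -0.29 for HFD+PE. The pooled median was -0.14 without chow 5 and -0.13 with 18 separate arrays. The list mean, relative to the chow mean, ran from -0.27 to 0.27 in HFD animals and from -0.74 to 0.43 in HFD+PE animals, of which HFD+PE 3-4 was above every HFD animal. Fasn, the fatty acid synthase, was at 9.8, 10.6, 9.55, 10.4 and 9.5 in chow and from 7.8 through 9.05 to 10.1 in fat-fed animals (-1.04, SE 0.34), and HFD+PE was lower than HFD by 0.90 (95% interval -1.63 to -0.17, adjusted p = 0.993). Fatty acid oxidation in mitochondria was higher in 14 of 18 cases with a median of 0.15, with Acaa2 (0.32, SE 0.13) and Acadl (0.26, SE 0.11) first. That median was 0.08 both without chow 2 and on the low hybridization control set. Peroxisomal fatty acid oxidation was not higher as a list: of 14 measured genes 6 were higher and 8 lower, with a median of -0.02. Its member farthest above chow was Ehhadh, a bifunctional enzyme. Ehhadh was at 10.8, 10.1, 10.55, 10.8 and 10.6 in chow and from 10.5 through 11.1 to 11.55 in fat-fed animals (0.56, SE 0.16). The lipid droplet gene Plin2 was at -0.29 (SE 0.24).

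Clock genes stood on both sides of chow. Of 19 measured, 12 were higher and 7 lower, with 7 and 2 at an unadjusted p under 0.05 and 0 past the threshold in limma. The output factors Tef (0.63, SE 0.20) and Hlf (0.52, SE 0.18), the repressors Nr1d2 (0.50, SE 0.15) and Nr1d1 (0.51, SE 0.19) and the period genes Per3 (1.05, SE 0.39) and Per2 (0.89, SE 0.37) were higher, and Nfil3 (-0.50, SE 0.16) and Rora (-0.48, SE 0.19) were lower. Dbp, whose transcript swings widely over the day, was at 5.4, 9.4, 5.35, 7.6 and 6.4 in chow 1, 2, 3-4, 5 and 6 and from 5.95 in HFD 1-2 through 8.75 to 10 in fat-fed animals. The chow animals thus covered nearly the whole range of the fat-fed animals, and the difference of 1.56 had an SE of 0.65. The median of the list, 0.17, was 0.03 without chow 5 and 0.02 without HFD 3.

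**Figure D4:**
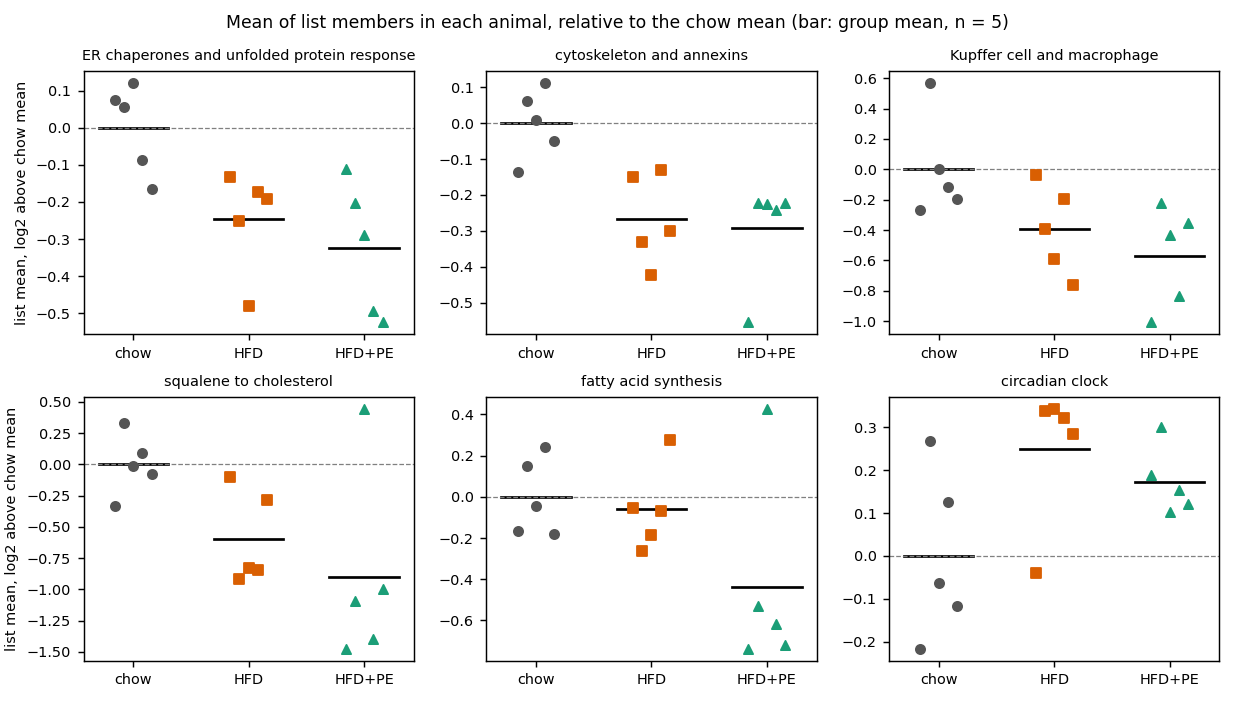
Mean of the measured members of 6 lists in each animal, as log2 units above the chow mean; points are animals, the line is the group mean (n = 5 animals per group), and the dashed line is the chow mean. For the endoplasmic reticulum and cytoskeleton lists all 10 fat-fed animals lie below the dashed line, whereas HFD+PE 3-4 lies above it for squalene to cholesterol (0.44) and fatty acid synthesis (0.43).

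Among other metabolic genes a few single members stood out without passing. Aldh1a1, a retinaldehyde dehydrogenase, was at 9.1, 8.9, 8.55, 10.8 and 9.6 in chow and from 9.9 through 10.8 to 11.7 in fat-fed animals (1.46, SE 0.33, adjusted p = 0.13); only chow 5 lay within the fat-fed range. Agxt2, a mitochondrial aminotransferase, was at 8.8, 8.8, 10.1, 9.2 and 8.8 against 9.1, 10.3 and 10.9 (1.11, SE 0.29). The cytochrome P450 gene Cyp2e1 was higher by 0.52 (SE 0.13) and the sterol exporter gene Abcg5 by 0.73 (SE 0.30). The lists that hold the first 3 of these genes were near 0, with medians of -0.05 for NRF2 and antioxidant defence and 0.01 each for amino acid catabolism with the urea cycle and for P450s. The list of bile acid and sterol efflux genes, which holds Abcg5, had a median of 0.12, with 15 of 25 higher. Its mean was above the chow mean in all 10 fat-fed animals and above every chow animal in 6, but its median was 0 on the low hybridization control set, 0.05 without HFD+PE 1 and 0.06 without HFD+PE 2. The respiratory complexes were level, with medians of 0.03 for complex I and -0.003 for complexes II to V.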

How the data were processed

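Per the submitters' processing notes, the authors processed the arrays with Affymetrix Expression Console and RMA, which corrects background, quantile-normalizes and summarizes probes; their versions: not given in the sources used here. For 31099 probe sets on 18 arrays the authors deposited log2 signals, all rounded to 0.1. After 57 control probe sets were left out, 20826 probe sets named 1 gene, 436 several and 9780 none on the platform's own list. RefSeq gave the current symbol by Entrez number for 20758 and by accession for 2, and the brightest probe set stood for each of 14217 genes, with no filter on dim genes. Arrays taken as near-identical were averaged, from the values and against labels that call all arrays biological replicates. Whether the remaining animals were housed or processed apart is not stated.

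Changes were fitted in R 4.3.3 with limma 3.58.1 and statmod 1.5.0 by lmFit and eBayes with the default prior: 1 mean for fat-fed and 1 for chow, two-sided, Benjamini-Hochberg over all genes at 0.05. A fit with 1 mean per group gave HFD, HFD+PE and their difference. The procedure was tested on simulated data. Precision is limited by how few animals there are and by the rounding, since arrays give no depth; the median SE of a change was 0.0905. Named genes were the 15 with the smallest p in each direction, plus up to 5 members with the smallest p of each list described; others are named for their role, or for not overlapping, after their values were seen. The members and lists were chosen with earlier results of these data known, and no test was run on lists. Alternatives covered averaging, probe sets, dim genes, covariates, weights, normalization and leaving out animals. Promoters came from RefSeq, build GRCr8.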

Additional observations from a re-analysis of the deposited data

Results flagged for a closer look

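Within groups of 5 or 10 animals, 24 of 280 group values (30 genes and 40 lists) had 1 animal far from the others by Dixon's criterion. The usual rate of about 1 in 20 assumes independent, unrounded values. Gene values here are rounded, and each fat-fed animal is tested both in its group and among all fat-fed animals. The count therefore cannot be judged against that rate. Among genes past the threshold, Enpp2 was low in chow 2 (10.8, other chow animals 11.3 to 11.5) and, among fat-fed animals, in HFD 1-2 (11.6, others 11.9 to 12.2), and Tagln2 was low in HFD 4 (7.4, other fat-fed animals 7.7 to 8.0). Among the other named genes, Wasf1 was at 6 in HFD 4, Ppp2r3a at 7.5 in HFD+PE 2, Timp1 at 5.2 in HFD+PE 6, Parp16 at 7.5 in HFD+PE 3-4 and Dnajb11 at 9.6 in chow 6; the last and Timp1 stood against animals that were equal after rounding.

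List means, relative to the chow mean, set HFD+PE 3-4 apart from the other HFD+PE animals in the mevalonate arm (0.25, others -1.30 to -0.99), squalene to cholesterol (0.44, others -1.48 to -0.996) and fatty acid synthesis (0.43, others -0.74 to -0.53). Chow 2 stood apart in peroxisomal fatty acid oxidation (-0.25), glycolysis and gluconeogenesis (-0.16) and inflammation (0.28). HFD 1-2 stood apart in insulin and IGF signalling (0.18, other HFD animals -0.18 to -0.12) and in the circadian clock (-0.039, others 0.28 to 0.34). HFD 4 was low in heat shock proteins (-0.41) and antigen presentation (-0.51). HFD+PE 1 was low in the cytoskeleton and annexin list (-0.56, other HFD+PE animals -0.24 to -0.22), in acute phase proteins (-0.20) and in peroxisomal fatty acid oxidation (-0.075). HFD+PE 5 was high in the integrated stress response, both within HFD+PE and among all fat-fed animals (0.51), and HFD+PE 2 in xenobiotic P450s (0.53).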

How the results depend on the processing

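The count of 5 genes past the threshold (1 higher, 4 lower) moved with the processing more than the sizes did. It was 0 in each direction with 1 mean per group, with the mean of all probe sets, with every probe set by itself, with the hybridization control set as a covariate and with each array centred on its median; 1352 to 2985 had an unadjusted p under 0.05 in limma there. It was 36 (18 higher, 18 lower) with 18 separate arrays, 3 (0 and 3) with the first array of each pair, 2 (0 and 2) on the low hybridization control set, 4 (1 and 3) with the second number of the sample descriptions or with array weights, and 6 (1 and 5) with trend and robust eBayes or repeated quantile normalization. Leaving out 1 animal gave 0 to 31 genes, 0 to 14 higher and 0 to 17 lower, and 0 to 2 for HFD+PE against HFD. With 18 arrays and a replicate block, 40 genes passed (24 higher, 16 lower). The deviations of same-numbered arrays from their group means correlated between -0.305 and 0.189, over 0.1 in 4 of 18 pairs. The numbers thus gave no sign of pairing the animals.

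Over all alternatives, Tagln2 ranged from -0.80 to -0.57, Enpp2 from 0.62 to 0.80, Isyna1 from -0.91 to -0.70, Hsph1 from -0.99 to -0.82 and Vim from -0.74 to -0.61. Signs turned for Ndufv3 (0.005 with the mean of probe sets), Ddit4 (0.18 with all animals, -0.05 on the low set) and Anxa4 (-0.0054 with the hybridization covariate, -0.078 on the low set, and -0.0075 without chow 1 to 0.12 without chow 5). Of list medians under an alternative, 1152 stayed within the spread between animals and 8 did not; the cause was not tested.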
